A study of Zea mays with 2182 samples.

Results

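Maize anther cells at an anther length of 1.25 mm were compared with cells at 1.5 mm. The members are the columns of the UMI table that carry either length in their name and hold at least 500 UMIs, which gave 12.8% of the 2182 cells of the series. All but 3 of these fell in pools of at least 8 cells. At 1.25 mm there were 4 pools, of 15 (set 1.4.21 number 1), 38 (3.29.22 number 1), 54 (8.18.21 number 2) and 36 cells (8.18.21 number 5). At 1.5 mm there were 5 pools, of 19 (1.4.21 number 2), 10 (1.4.21 number 6), 28 (3.29.22 number 1), 36 (8.18.21 number 1) and 40 cells (8.18.21 number 2), and values below are given in this order of pools. Levels are CPM, the UMIs of a row scaled to the same total in every pool, or their log2 after adding 5. A pool is the sum of the cells that share a set, a set number and a length in their title, and it is the unit of replication here. Both lengths were from the inbred line W23, grown in a greenhouse with no treatment, and every cell was a single anther cell sorted after fixation and digestion and sequenced with CEL-Seq2, a plate method that counts the 3' ends of polyadenylated RNA with unique molecular identifiers (UMIs). Length stands for developmental stage. The series holds further lengths, and its design text gives at least 2 plants per stage. The labels do not link cells to plants, give no plant age and leave the meaning of the set number unstated, so p-values measure only the spread between pools.

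In grass anthers, long noncoding transcripts from PHAS loci are cut by a microRNA, made double-stranded and diced into phased small RNAs. The 24PHAS and 21PHAS rows are named for the length in nucleotides of the small RNAs. Cleavage of the 24PHAS class is directed by the miR2275 family and that of the 21PHAS class by the miR2118 family, and the 24PHAS class is known from anthers around meiosis, where the tapetum, the nurse layer of the pollen mother cells, is a main source.

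The pools held 17642 to 100998 UMIs each, and their median cell held 682 to 1535 UMIs. No 2 cells had identical counts, and pairs of pools shared 1 to 31 well numbers. Cells in the same numbered well of different pools fell in the same cluster over 1.5 times as often as their numbers give, with at least 10 such pairs, in 3 of 18 clusters of the series (1.91 to 3.54 times). These clusters, numbered 8, 10 and 14 and called clusters with recurring wells, held 51 of the cells at 1.25 mm (35.7%) and 34 at 1.5 mm (25.6%), and the 24PHAS levels are given without them too, as are fold changes of the rows with the smallest p that then move by over 1.5 times and still pass the count filter. The 1.5 mm pool of set 1.4.21 number 6 stood apart: the row Zm00001d048618 reached 21823 CPM there and at most 1782 CPM in any other pool. The label "anther" could be checked against few markers. Tapetum (MS45, MS44, MS8, MS23) and pollen markers (ZM13, PRO1) have no row under these names, nor have the epidermal OCL4 and the meiotic RAD51A1, AM1 and DMC1. The summed markers of dividing cells (FEN1, MAD2, ROA2, HMGIY2) ranged from 658 to 2435 CPM at 1.25 mm and from 567 to 1423 CPM at 1.5 mm. The epidermal CR4 reached at most 32.5 CPM in a pool, with 2 UMIs at each length. The meiotic marker RAD51B had only 6 UMIs at 1.25 mm, spread over all 4 pools. At 1.5 mm it had 3 UMIs, all in the pool 1.4.21 number 2 (87.7 CPM). These counts are too few to rank the pools.

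No row passed the test between the lengths. With edgeR's quasi-likelihood test, with set as a covariate, 0 of 973 tested rows (0.0%) had a Benjamini-Hochberg adjusted p under 0.05, and the smallest adjusted p was 0.058. At an unadjusted p under 0.05 94 rows were higher at 1.5 mm (9.66% of those tested) and 35 lower (3.6%). DESeq2 called 9 of the same 973 rows, 8 higher and 1 lower at 1.5 mm. The test of whether the difference varied between the 3 sets called 0 of 1593 rows, with 89 at an unadjusted p under 0.05. The fold changes below are therefore values with their errors, and none is a call. Leaving out the 1.5 mm pool of 8.18.21 number 2 gave 13 calls of 854 rows, 12 of them higher at 1.5 mm.

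The 24PHAS precursors had a higher mean level at 1.5 mm, with overlapping pools. Summed over the 75 rows, 24PHAS transcripts stood at 0 CPM in the 1.25 mm pool of set 1.4.21 number 1, at 811 CPM in 3.29.22 number 1, at 2188 CPM in 8.18.21 number 2 and at 3402 CPM in 8.18.21 number 5. At 1.5 mm they stood at 5932 CPM in 1.4.21 number 2, at 0 in 1.4.21 number 6, at 6958 in 3.29.22 number 1, at 17653 in 8.18.21 number 1 and at 4253 in 8.18.21 number 2. Of the 5 pools at 1.5 mm, 4 thus lay above every pool at 1.25 mm and the fifth had no 24PHAS UMI, so the groups overlap. A count of 0, taken as 3 counts, allows at most 170 CPM in either of these pools. The 95% Poisson interval, which covers counting error only, ran from 2879 to 3992 CPM in the highest 1.25 mm pool and from 3706 to 4858 CPM in 8.18.21 number 2 at 1.5 mm, the lowest of the 4.

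The mean was 1600 ± 1503 CPM (SD, n = 4) at 1.25 mm and 6959 ± 6542 CPM (SD, n = 5) at 1.5 mm. The mean within-set difference of log2(CPM + 5) was 3.29, higher at 1.5 mm in all 3 sets (5.11 in set 1.4.21, 3.09 in 3.29.22, 1.67 in 8.18.21). The value for set 1.4.21 rests on a 1.25 mm pool with 0 UMIs, and so on the pseudocount. Without the 1.5 mm pool 1.4.21 number 2 the mean difference was 1.59, and without 1.4.21 number 6 it was 4.99. In an exact two-sided permutation of the length labels within sets, p was 0.222. The 36 arrangements cannot give a p under 0.0278. In bulk sums, more cells of a type and more RNA per cell cannot be told apart, which is why values per cell follow the plot of the pools.

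**Figure D1:**
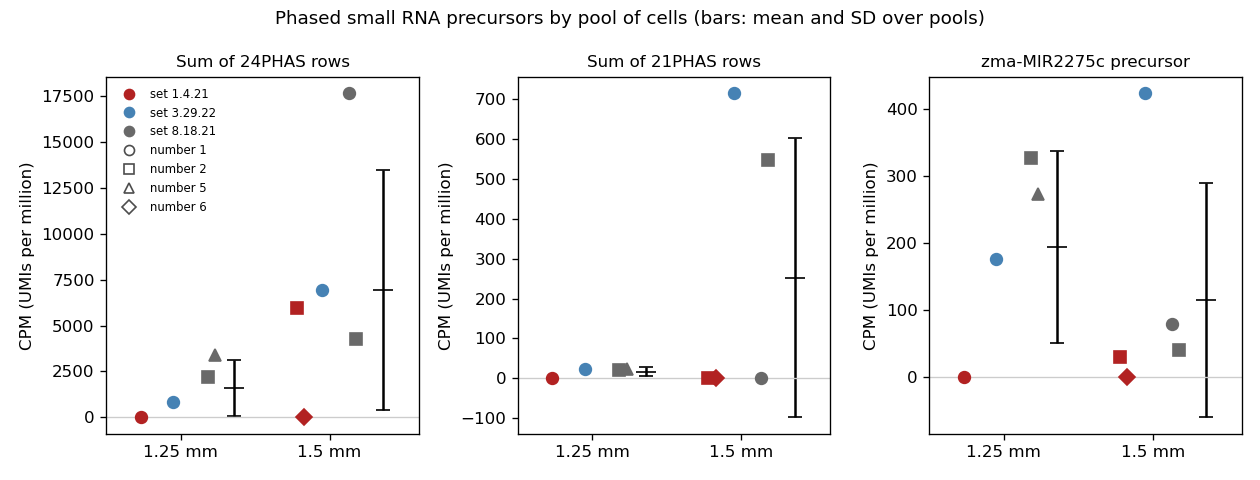
Summed 24PHAS rows, summed 21PHAS rows and the zma-MIR2275c precursor, in CPM on linear axes, for each pool at 1.25 mm and 1.5 mm; colour gives the set, the marker shape the set number, and bars the mean and SD over pools. In the 24PHAS panel 4 of the 5 pools at 1.5 mm lie above the highest pool at 1.25 mm (3402 CPM), while 1 pool at each length is at 0.

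Single cells carried the 24PHAS difference unevenly. After each cell was thinned to 500 UMIs, 40 cells at 1.25 mm (28.0%) and 57 at 1.5 mm (42.9%) held a 24PHAS UMI. By pool the share ran from 0 to 38.9% at 1.25 mm and from 0 to 66.7% at 1.5 mm, so the pools overlapped. The mean within-set difference was 15.4 percentage points (exact permutation within sets, two-sided, p = 0.139). Before thinning, the shares were 39.9% and 45.9%, a mean within-set difference of 10.3 points. Without the clusters with recurring wells, the thinned shares were 10.9% and 27.3%, a mean within-set difference of 11.6 points (exact permutation within sets, two-sided, p = 0.5).

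Cells rich in 24PHAS transcripts were counted without a test, at a threshold chosen after the values were seen. At least 5 of the 500 UMIs came from 24PHAS rows in 6 cells at 1.25 mm, 3 each in the pools 8.18.21 number 2 and number 5, and in 32 cells at 1.5 mm. Of those 32, 15 were in 8.18.21 number 1, 6 in 8.18.21 number 2, 6 in 3.29.22 number 1 and 5 in 1.4.21 number 2. Outside the clusters with recurring wells there were 0 such cells at 1.25 mm and 15 at 1.5 mm, of which 10 were in 8.18.21 number 1 and 5 in 1.4.21 number 2. Before thinning, the median cell with any 24PHAS UMI took 0.193% of its UMIs from these rows at 1.25 mm and 0.916% at 1.5 mm, and the highest cell took 4.55% and 11.9%. The 10 richest cells held 66.2% of all 24PHAS UMIs at 1.25 mm and 50.2% at 1.5 mm, where the class had 3.2 times as many UMIs.

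The cells that carried 24PHAS transcripts were not in the same cluster in every pool. The cells had been clustered over the whole series without PHAS and microRNA rows. At 1.25 mm, the 50 cells of cluster 10 held 94.1% of the 24PHAS UMIs, a level of 3962 CPM. At 1.5 mm, the 17 cells of cluster 10 held 27.7% (18746 CPM), the 16 cells of cluster 14 held 17.0% (7828 CPM) and the 16 cells of cluster 16 held 53.3% (28784 CPM). Cluster 16 was present only at 1.5 mm of the lengths compared, with 6 cells in the pool 1.4.21 number 2 and 10 in 8.18.21 number 1. These pools had 0 cells in cluster 10, while 3.29.22 number 1 and 8.18.21 number 2 at 1.5 mm had 8 and 9 cells in it and 0 in cluster 16.

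Without the clusters with recurring wells, the 24PHAS level as log2(CPM + 5), on which a pool with no UMI stands at 2.32, was 2.32, 7.58, 7.81 and 8.69 in the pools at 1.25 mm. At 1.5 mm it was then 12.54, 2.32, 6.83, 14.18 and 7.30. Only the pools with cluster 16 therefore stayed above the 1.25 mm pools, and the within-set difference was 2.28 on the log2 scale (exact permutation within sets, two-sided, p = 0.611). With clusters left out at the ratio first set, over 2, which keeps cluster 10, the difference was 3.35 (p = 0.222, the same test). Whether recurrence of wells plays a part in the 24PHAS levels was not tested.

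**Figure D2:**
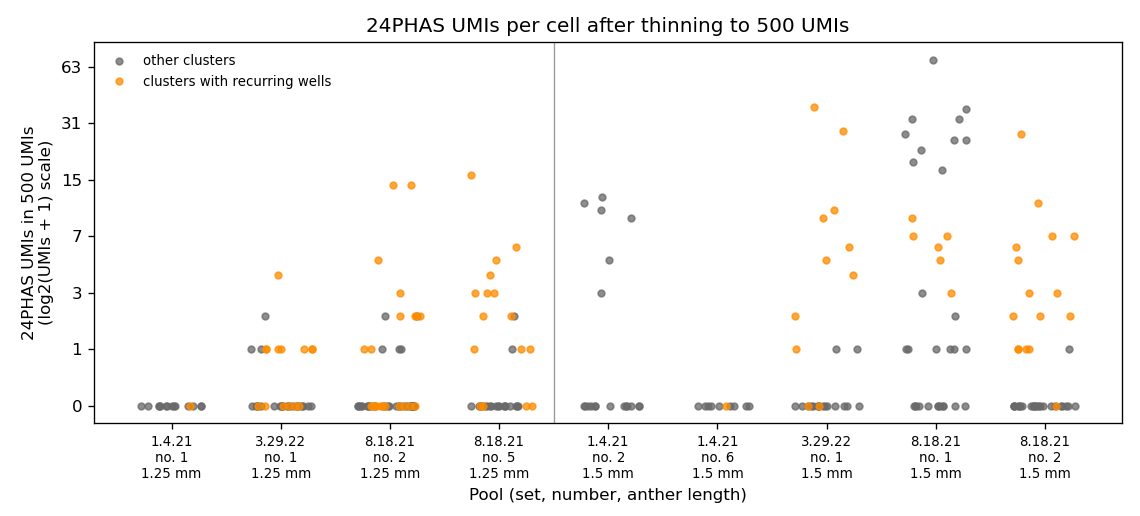
24PHAS UMIs among 500 UMIs of each cell, on a log2(UMIs + 1) axis, for the cells of the 9 pools, with cells of clusters with recurring wells in orange and other cells in grey; sideways scatter within a pool has no meaning. At 1.25 mm the highest cell has 16 of 500, and at 1.5 mm cells reach 69 in 8.18.21 number 1 and 38 in 3.29.22 number 1.

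Most loci of the class were higher at 1.5 mm. Of the 75 loci in the table, 69 had a UMI at either length, 41 of them at 1.25 mm and 69 at 1.5 mm. By mean CPM over pools, 64 were higher and 5 lower at 1.5 mm. The loci share the same cells and pools, so they are not independent of each other. Of the 38 loci with at least 10 UMIs in all, 37 were higher at 1.5 mm. The 5 richest loci held 57.1% of the class at 1.25 mm and 42.3% at 1.5 mm, and 4 loci were among the 5 richest at both lengths. Only 8 loci passed the count filter of the test, with a median log2 fold change of 2.66 beside 0.03 over all 973 rows. All 8 had a positive fold change, beside 516 of all 973 rows. An unadjusted p under 0.05 was seen in 7, beside 9.66% of all rows. The filter could be passed through the 1.5 mm pools alone, as by 24PHAS_NO22 with 8 UMIs at 1.25 mm. The signs, p-values and median of these loci are therefore partly set by the filter and are no separate support for a difference.

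Levels of single rows are given per pool as log2(CPM + 5), the scale of the permutation tests. Locus 24PHAS_NO180 stood at 2.32, 4.75, 6.22 and 7.71 at 1.25 mm and 9.92, 2.32, 9.21, 10.91 and 7.50 at 1.5 mm. Its log2 fold change was 3.64 ± 0.93 (SE; edgeR adjusted p = 0.19), and it was detected in 8 cells at 1.25 mm (5.59%) and 34 at 1.5 mm (25.6%). The pools 1.4.21 number 6 and 8.18.21 number 2 at 1.5 mm lie within the range of 1.25 mm for this locus.

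Locus 24PHAS_NO187_NO188, a row that joins neighbouring locus numbers, had 2.32, 6.15, 7.26 and 7.99 at 1.25 mm and 8.79, 2.32, 8.85, 10.79 and 8.13 at 1.5 mm. Its log2 fold change was 2.74 ± 0.72 (SE; adjusted p = 0.19). Locus 24PHAS_NO15 had 2.32, 5.61, 6.22 and 7.86 at 1.25 mm and 7.71, 2.32, 8.05, 10.19 and 8.22 at 1.5 mm, a log2 fold change of 2.67 ± 0.68 (SE; adjusted p = 0.19). Without 8.18.21 number 1 at 1.5 mm the fold changes were 2.33 for 24PHAS_NO180 and 1.64 for 24PHAS_NO187_NO188. Without the clusters with recurring wells the latter was 4.82 (edgeR adjusted p = 0.347), on few UMIs at 1.25 mm. For 24PHAS_NO15 and 24PHAS_NO187_NO188 the pool 8.18.21 number 1 was the highest at 1.5 mm, and the lengths overlapped.

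The most abundant locus at both lengths, 24PHAS_NO298, differed less. It stood at 2.32, 2.32, 9.34 and 9.56 at 1.25 mm and 10.16, 2.32, 9.21, 10.81 and 8.89 at 1.5 mm (log2 fold change 1.91 ± 0.86 SE, adjusted p = 0.365). Within set 8.18.21 the pool at 1.5 mm with number 2 was below both pools at 1.25 mm. Locus 24PHAS_NO296 was alike, with 0 to 454 CPM at 1.25 mm, 0 to 922 CPM at 1.5 mm and a log2 fold change of 1.22 ± 0.61 (SE). Without the clusters with recurring wells these fold changes were 4.10 for 24PHAS_NO298 and 3.93 for 24PHAS_NO296 (edgeR adjusted p = 0.374 and 0.443). The whole class then held only 0, 5, 10 and 9 UMIs in the 1.25 mm pools, so these fold changes rest on few counts. The remaining tested loci, 24PHAS_NO40, 24PHAS_NO246 and 24PHAS_NO22, had log2 fold changes of 2.64 ± 0.82, 1.91 ± 0.64 and 2.73 ± 1.08 (SE), with adjusted p of 0.234, 0.239 and 0.316. Locus 24PHAS_NO246 was highest in the 1.5 mm pool of set 3.29.22 (650 CPM) and 24PHAS_NO22 in 8.18.21 number 1 (606 CPM), so the loci do not keep 1 order across pools.

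Among loci below the count filter, 24PHAS_NO19 had 0 UMIs at 1.25 mm and 35 at 1.5 mm, in 4 of 5 pools. In all, 28 loci had UMIs at 1.5 mm only and 0 at 1.25 mm only, and the plot of the loci shows them at its left edge.

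**Figure D3:**
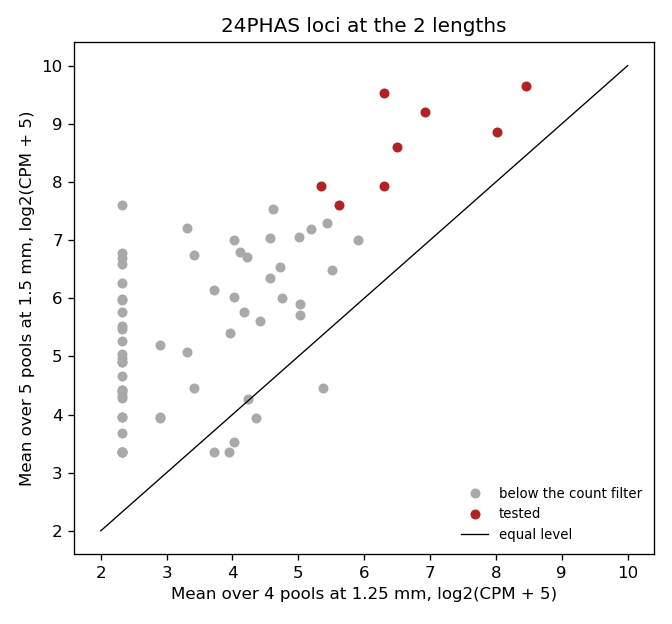
Each point is 1 of the 69 detected 24PHAS loci, with its mean level over 4 pools at 1.25 mm against that over 5 pools at 1.5 mm, both as log2(CPM + 5); the line marks equal levels and red points are the 8 loci tested. Of the 69 points, 64 lie above the line, and the column at the left edge holds the 28 loci with no UMI at 1.25 mm.

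The level of the trigger microRNA precursor moved in no single direction, and its rise in set 3.29.22 rests on 2 cells. The microRNA precursor zma-MIR2275c, of the miR2275 family, stood at 2.32, 7.50, 8.37 and 8.11 on the log2(CPM + 5) scale in the pools at 1.25 mm (53 UMIs in 21 cells, 14.7%). At 1.5 mm it stood at 5.10, 2.32, 8.74, 6.39 and 5.47 (19 UMIs in 6 cells, 4.51%). Levels were thus higher at 1.5 mm in set 3.29.22 and lower in set 8.18.21. In the latter, both 1.5 mm pools were below both 1.25 mm pools. In set 3.29.22 the share of cells with the precursor was lower at 1.5 mm (2 of 28) than at 1.25 mm (4 of 38). The richest cell at 1.5 mm held 9 of the 19 UMIs, and no pool but that of set 3.29.22 had so many. The log2 fold change of the precursor was -0.71 ± 0.76 (SE; edgeR adjusted p = 0.783). At 1.25 mm, 19 of its 21 cells, and at 1.5 mm all 6, also held a 24PHAS UMI, beside 39.9% and 45.9% of all cells. Cells with recurring wells held 100% of the UMIs of the precursor at 1.25 mm and 78.9% at 1.5 mm. The other detected precursors were of the miR159 and miR169 families. The 5 of the miR159 family had UMIs at 1.5 mm only, and zma-MIR2118f, of the family that cuts 21PHAS transcripts, had none at either length.

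The 21PHAS class was low at both lengths. Its rows held 4 UMIs at 1.25 mm, at 0 to 22.7 CPM per pool, and 50 UMIs at 1.5 mm. The latter lay in 3.29.22 number 1 (715 CPM) and 8.18.21 number 2 (549 CPM), and the other 3 pools at 1.5 mm had 0. The richest cell at 1.5 mm held 19 of the 50 UMIs. Of the 13 cells with a 21PHAS UMI, 11 also held a 24PHAS UMI, beside 45.9% of all cells at 1.5 mm. Only 4 of the 13 lay outside the clusters with recurring wells. The mean within-set difference of log2(CPM + 5) was 1.92 (exact permutation within sets, two-sided, p = 0.5). It was 0.50 without either pool of set 3.29.22, 0.78 without 8.18.21 number 2 at 1.5 mm and 3.05 without 8.18.21 number 1. No 21PHAS row passed the count filter.

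The neighbouring lengths were analysed mainly in set 8.18.21. At 1.0 mm, pools 2 and 5 of set 8.18.21 had 38.5 and 12.7 CPM of 24PHAS and 2276 and 545 CPM of 21PHAS. At 1.75 mm the pools of set 8.18.21 had 8116 and 14709 CPM of 24PHAS and 54.9 and 62.3 CPM of 21PHAS, and the 1.4.21 number 2 pool had 18.9 and 0 CPM. Within set 8.18.21, the 1.25 mm and 1.5 mm pools thus lay between these lengths in 24PHAS, apart from 8.18.21 number 1 at 1.5 mm (17653 CPM), which was above both. In 21PHAS, both 1.25 mm pools of that set and number 1 at 1.5 mm were below the pools of the set at 1.0 mm. They held 2, 1 and 0 UMIs and the 1.75 mm pools 5 and 4 UMIs, a difference not detectable at this depth. Number 2 at 1.5 mm (549 CPM) was above the 1.75 mm pools and close to number 5 at 1.0 mm (545 CPM).

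SGS3 is the one row of the table among the phased small RNA proteins searched for; in Arabidopsis it works with the RNA-dependent RNA polymerase RDR6 in making the double-stranded precursor. Its log2(CPM + 5) was 10.12, 9.37, 9.55 and 9.37 at 1.25 mm and 7.90, 7.86, 9.62, 9.26 and 9.39 at 1.5 mm. Both 1.5 mm pools of set 1.4.21 were low, 8.18.21 number 1 at 1.5 mm was slightly below every 1.25 mm pool, and the remaining pair lay within their range. The log2 fold change was -0.47 ± 0.39 (SE; edgeR adjusted p = 0.677).

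C2, which encodes chalcone synthase, the entry enzyme of flavonoid synthesis, had a higher mean level at 1.5 mm in each set. Its log2(CPM + 5) was 2.32, 7.31, 8.65 and 8.77 at 1.25 mm and 9.13, 11.25, 9.43, 10.68 and 8.02 at 1.5 mm. The last lies within the range at 1.25 mm and the others above it, and the pool that stood apart was the highest. The log2 fold change was 2.08 ± 0.70 (SE; adjusted p = 0.239). It was 0.83 with at least 1000 UMIs per cell, 1.35 without the clusters with recurring wells and 8.02 within set 1.4.21, where the 1.25 mm pool had no UMI. A C2 UMI was found in 25 cells at each length (17.5% and 18.8%), and the richest cell held 27.3% of its UMIs at 1.25 mm and 27.2% at 1.5 mm. A 24PHAS UMI was present in 15 and 14 of these cells, beside 39.9% and 45.9% of all cells.

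Genes of photosynthesis and the plastid had mostly positive fold changes without passing the test. Of 25 plastid-encoded rows, 19 were tested and 0 were called. A higher fitted level at 1.5 mm was found in 18, beside 516 of all 973 tested rows. An unadjusted p under 0.05 with a higher level at 1.5 mm was found in 5, beside 9.66% of all tested rows. The median log2 fold change was 0.56 beside 0.03 over all tested rows. Summed, the plastid-encoded rows took 1.42 to 2.91% of UMIs in the pools at 1.25 mm and 1.67 to 3.44% at 1.5 mm. Within each set every pool at 1.5 mm was above every pool at 1.25 mm, at 2.37 and 1.67% against 1.42% in set 1.4.21, 2.93% against 1.84% in 3.29.22, and 3.44 and 3.15% against 2.53 and 2.91% in 8.18.21. This was seen in the values and not tested. Plastid sequences have copies in the nuclear genome of maize, and a row named rps3 may also take reads of the mitochondrial gene of that name, so these rows are uncertain.

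Among them ycf70, a plastid open reading frame, had a log2(CPM + 5) of 8.14, 8.29, 9.34 and 9.80 at 1.25 mm and 9.96, 9.30, 9.98, 10.75 and 9.76 at 1.5 mm (log2 fold change 1.27 ± 0.36 SE, adjusted p = 0.196). The gene cemA, for a protein of the chloroplast envelope, had 1882 to 4173 CPM at 1.25 mm and 2777 to 4690 CPM at 1.5 mm (0.75 ± 0.30 SE on the log2 scale, adjusted p = 0.32). For psbC, the CP43 antenna protein of photosystem II, the ranges were 1096 to 2132 CPM and 1658 to 3478 CPM (0.73 ± 0.31 SE). Each of the 3 genes overlapped between lengths. For ndhI and ndhF, subunits of the chloroplast NADH dehydrogenase-like complex, the log2 fold changes were 0.94 ± 0.41 and 0.56 ± 0.30 (SE). For atpI, a subunit of the plastid ATP synthase, it was 0.72 ± 0.33, and for the ribosomal protein genes rps18 and rps3 it was 0.80 ± 0.37 and 0.54 ± 0.32 (SE). The adjusted p of these 5 genes ran from 0.345 to 0.575.

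Of 8 nuclear photosynthesis rows, 2 were tested. RBCS, the small subunit of Rubisco, had a log2(CPM + 5) of 2.32, 7.31, 7.44 and 5.65 at 1.25 mm and 9.52, 5.95, 7.86, 8.90 and 7.15 at 1.5 mm, a log2 fold change of 1.61 ± 0.72 (SE; adjusted p = 0.365). It was found in 9 cells at 1.25 mm (6.29%) and 24 at 1.5 mm (18.0%). CAB1, a chlorophyll-binding antenna protein, ranged on that scale from 5.92 to 9.93 at 1.25 mm and 7.86 to 11.44 at 1.5 mm (1.04 ± 0.67 SE, adjusted p = 0.597). In set 3.29.22 CAB1 was lower at 1.5 mm (8.37) than at 1.25 mm (9.42), and in the other sets it was higher on average. All 9 cells with RBCS at 1.25 mm and 20 of the 24 at 1.5 mm also held CAB1. The summed photosynthetic markers RBCS, CAB1, PSAH and PSBQ1 ranged from 55.3 to 1327 CPM at 1.25 mm and from 650 to 3820 CPM at 1.5 mm. These ranges overlapped. In set 3.29.22 the sum was lower at 1.5 mm than at 1.25 mm, and in the other sets it was higher on average. The families of these markers have near-identical copies among which the counting could divide reads.

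**Figure D4:**
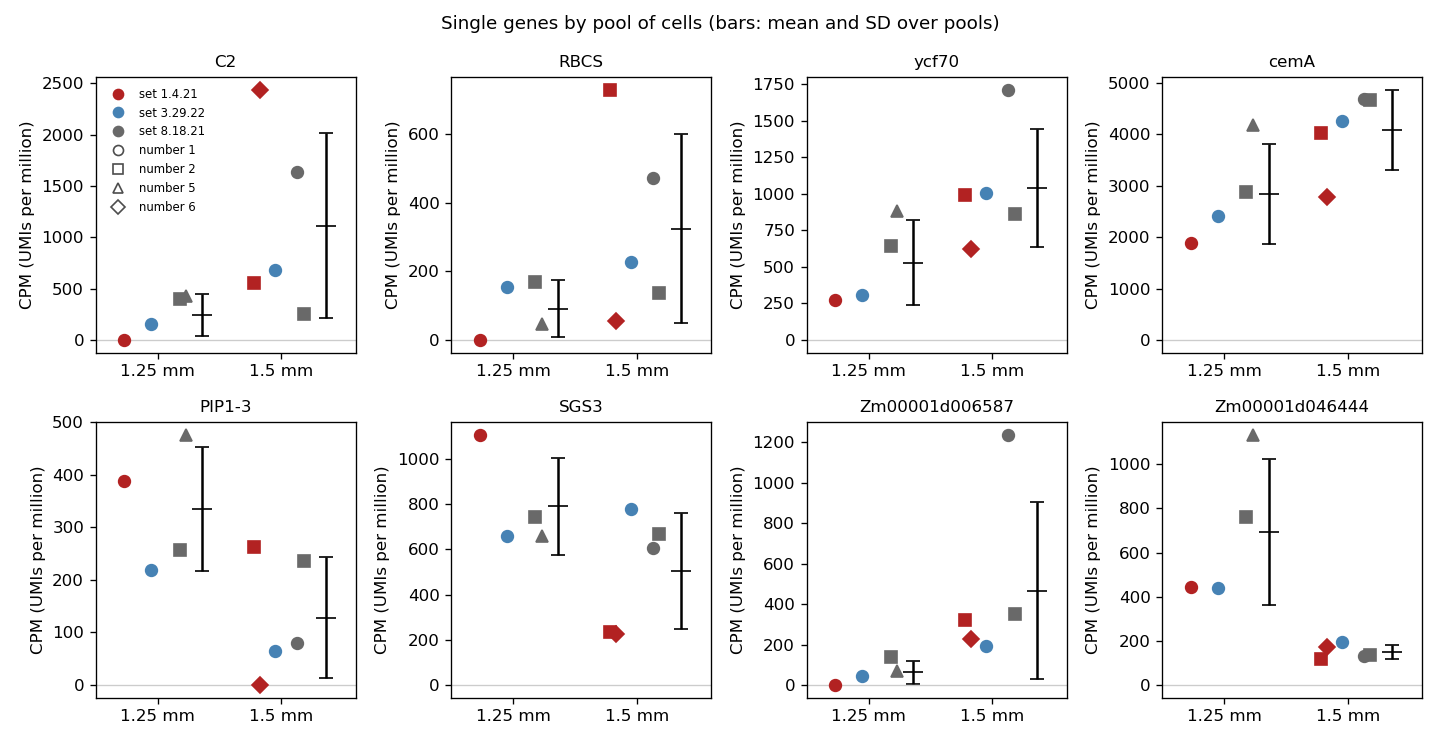
Levels of 8 genes in CPM on linear axes for each pool at 1.25 mm and 1.5 mm, with colour for the set, marker shape for the set number, and bars for the mean and SD over pools. The lengths do not overlap for Zm00001d006587 and Zm00001d046444, and they overlap for the other 6.

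Aquaporins, the water channels, gave mixed values. Of 10 rows 5 were tested, 4 with a positive and 1 with a negative fold change, beside 516 and 457 of all 973 rows. The median was 0.10. PIP2-2 of the plasma membrane had a log2(CPM + 5) of 5.92, 7.50, 8.46 and 8.11 at 1.25 mm and 7.24, 7.45, 8.22, 8.90 and 8.95 at 1.5 mm (log2 fold change 0.86 ± 0.32 SE, adjusted p = 0.299). It was 0.50 without the clusters with recurring wells and 0.27 with each cell thinned to 500 UMIs. PIP1-3, of the same family, had 8.62, 7.81, 8.04 and 8.91 at 1.25 mm and 8.07, 2.32, 6.13, 6.39 and 7.91 at 1.5 mm (-1.10 ± 0.54 SE, adjusted p = 0.431). For PIP1-3, 3 of the 5 pools at 1.5 mm lay below every pool at 1.25 mm.

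Other lists lay close to the median of all rows. The 4 tested alpha-tubulin rows (TUBA1, TUBA3, TUBA5, TUBA6) had log2 fold changes of -0.33 to 0.31. The 3 of actin-binding proteins (ADF3, PRO4, PRO5) ran from -0.21 to 0.20, the 3 of cytosolic ribosomal proteins from -0.40 to 0.26, and the chromatin proteins HMGIY2 and MNB1B had -0.26 and 0.02. The 3 of glycolysis and central metabolism (GAPC2, GAPC3, SAMDC) had -0.46, -0.18 and -0.41. None of these had an unadjusted p under 0.05. The 7 rows of DNA replication, methylation and checkpoint genes, the 5 of patterning regulators, the 4 of pollen genes and RAD51B did not pass the count filter.

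**Figure D5:**
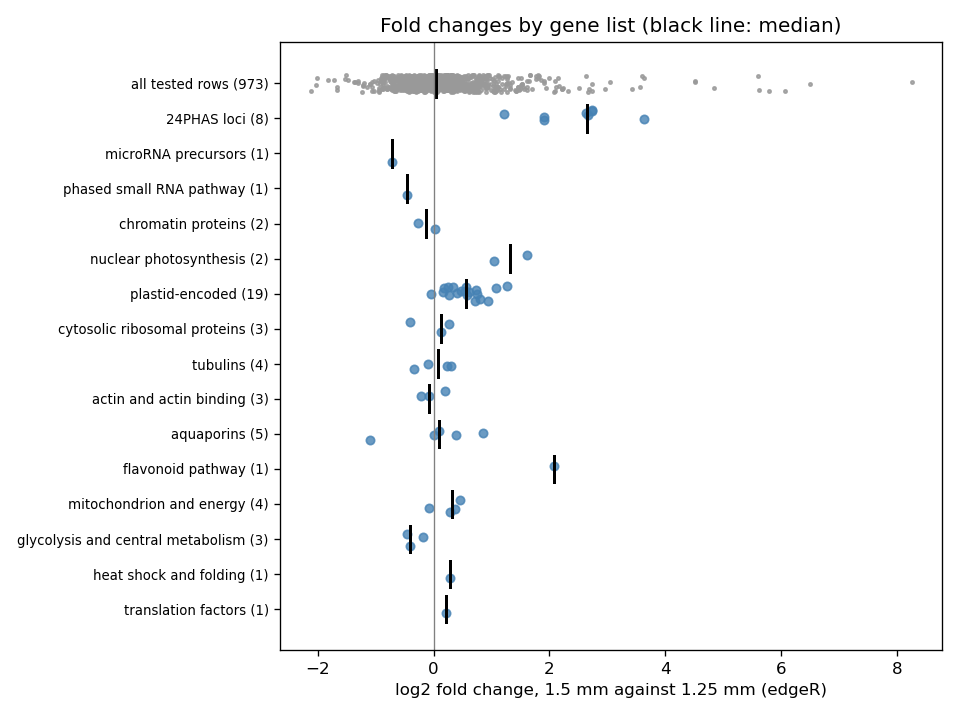
Fitted log2 fold changes of 1.5 mm against 1.25 mm for all 973 tested rows and for the tested members of each gene list, with the number of members in brackets and the median as a black line. The 24PHAS loci lie between 1.22 and 3.64, the 19 plastid-encoded rows between -0.04 and 1.27, and the median of all rows is 0.03.

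Rows with a gene ID alone had the smallest p-values, and no table used here names them. In 9 rows (0.925% of those tested) every pool at 1.5 mm lay above every pool at 1.25 mm, and in 21 rows (2.16%) every one lay below. Zm00001d046444 is one of the latter, with a log2(CPM + 5) of 8.81, 8.79, 9.58 and 10.15 at 1.25 mm and 6.93, 7.45, 7.64, 7.10 and 7.15 at 1.5 mm. Its log2 fold change was -2.02 ± 0.36 (SE; adjusted p = 0.058), and its UMIs were in 63 cells at 1.25 mm (44.1%) and 22 at 1.5 mm (16.5%). Without the clusters with recurring wells it was -1.37 (adjusted p = 0.434). Zm00001d028749 had 5.92, 9.22, 9.27 and 9.04 at 1.25 mm and 5.10, 2.32, 7.86, 5.85 and 8.02 at 1.5 mm (-1.52 ± 0.43 SE, adjusted p = 0.205). Here the 1.25 mm pool of set 1.4.21 lay among the 1.5 mm pools.

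Zm00001d006587 had every pool at 1.5 mm above every pool at 1.25 mm, with a log2(CPM + 5) of 2.32, 5.61, 7.17 and 6.19 at 1.25 mm and 8.35, 7.86, 7.64, 10.28 and 8.48 at 1.5 mm. Its log2 fold change was 2.97 ± 0.55 (SE; adjusted p = 0.058). Over the alternative fits it ran from 1.57, with each cell thinned to 500 UMIs, to 3.49, without 8.18.21 number 2 at 1.5 mm. Zm00001d031488 had 5.92, 5.61, 5.77 and 6.19 at 1.25 mm and 10.20, 10.15, 5.23, 10.22 and 7.50 at 1.5 mm (3.42 ± 0.71 SE, adjusted p = 0.112). In set 3.29.22 it was lower at 1.5 mm than at 1.25 mm.

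The number of genes per cell at equal depth differed between the lengths by less than the test could call. With 500 UMIs per cell, the median cell of each pool had 0.86, 0.889, 0.872 and 0.842 genes per UMI at 1.25 mm and 0.782, 0.83, 0.842, 0.813 and 0.861 genes per UMI at 1.5 mm. The mean within-set difference in the median was -20.2 genes per cell (exact permutation within sets, two-sided, p = 0.111), and the lengths overlapped. Within set 8.18.21, number 2 at 1.5 mm (0.861) lay between both pools at 1.25 mm.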

How the data were processed

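The authors deposited 1 table of raw UMI counts (22173 rows, 2182 cells), not normalised. Per the submitters' processing notes, reads were aligned with HISAT2 to B73 RefGen_v4; neither its version nor the counting tool or cell filters were stated there. Of the columns, 171, of small pools at other lengths, were not mapped to samples and not used. Cells with at least 500 UMIs were summed per pool (at least 8 cells), and the quasi-likelihood F-test of edgeR 4.0.16 (R 4.3.3) was applied to these sums, with set and length as terms, TMM scaling, low rows removed by filterByExpr, and Benjamini-Hochberg adjustment over all tested rows at a false discovery rate of 0.05. CPM values are UMIs divided by the UMIs of the pool and scaled to the usual CPM total, without TMM factors. Single values were tested by exact permutation within sets on log2(CPM + 5), or on values per pool after thinning cells to 500 UMIs. Scripts were tested on simulated data. UMIs remove amplification, but few molecules are captured per cell, and intervals cover counting error only.

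Cells of all lengths with at least 500 UMIs (1528) were clustered with scanpy 1.11.5 without PHAS and microRNA rows (2000 variable rows, 20 components, 15 neighbours, Leiden resolution 1). A cluster with at least 10 same-well pairs between pools and over 1.5 times the number that pool sizes give was marked as having recurring wells; the ratio was first set at 2 and lowered after the value of cluster 10 (1.91) had been seen. No doublet caller was run, since cells were dispensed singly.

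Named rows were the 20 rows with a name and at least 50 CPM with the smallest p, and the 2 higher and 2 lower rows with an ID alone and at least 100 CPM; list members could be added. The threshold of 5 in 500 UMIs, 24PHAS_NO19 and Zm00001d048618 were chosen after values were seen. The members and gene lists were chosen with earlier results of these data known. The RefSeq table, of assembly Zm-B73-REFERENCE-NAM-5.0, matched 158 of 163 symbols and 0 of 21635 v4 IDs, and no coordinates were used. Alternatives covered scaling, DESeq2 1.42.0, filters on rows and cells, the set term, the pairing by number, recurring wells and leaving out pools and sets.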

Additional observations from a re-analysis of the deposited data

Results flagged for a closer look

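In 56 groups of 4 or 5 pools checked for a single pool far from the others, 5 had one. The gap to the nearest pool was set against Dixon's 95% critical value, which chance passes in about 1 group in 20, and the groups share pools. At 1.5 mm, the pool 8.18.21 number 1 stood far above the others for 24PHAS_NO15 (1159 CPM), 24PHAS_NO187_NO188 (1765 CPM) and Zm00001d006587 (1238 CPM). At 1.25 mm, the pool of set 1.4.21 stood far below the others for Zm00001d028749 (55.3 CPM). For summed 21PHAS rows it was at 0 CPM and the others at 1 or 2 UMIs each, a difference not detectable at this depth, since a count of 0 allows more than the others had. Without 8.18.21 number 1 the mean within-set difference of the 24PHAS sum was 2.95 on the log2 scale.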

How the results depend on the processing

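The count of called rows, 0 in the reported fit, depended on several choices, and the cause was not tested. It was 46 of 18634 rows with no filter on low counts (14 of them with a gene or locus name in place of an ID, 13 of these 24PHAS loci), 9 with DESeq2 (1 with a name), 1 without the set term, 2 with at least 1000 UMIs per cell, 3 with pools of any size, and 18 within set 1.4.21 (2 with a name, 1 pool against 2, the lone pool being assumed to vary like the others). Leaving out 1 pool gave 0 to 13 calls (0 to 4 with a name), and only the absence of 8.18.21 number 2 at 1.5 mm gave any. Under a replicate block of set and number, 8 of 1593 rows were called, 2 of them with a name (24PHAS_NO180, 24PHAS_NO246), while the fold change of C2 was 0.65 and that of RBCS 0.16. The pools share only a number, and the correlation of same-numbered pools was 0.199 and 0.212, while other pairs of 8.18.21 had 0.046 to 0.285. The other scalings, the stricter row filter, all deposited cells, thinned cells, both removals of recurring wells (1 chosen after seeing the data), set 8.18.21 alone and leaving out any set gave 0 calls. Library size alone moved the median fold change of all rows from 0.03 to -0.09. The direction of the mean difference in both PHAS sums, the share of cells and genes per cell held under the alternatives run. An exception was the 21PHAS difference within set 1.4.21, which was 0. Within set 3.29.22, the 24PHAS log2 level without the clusters with recurring wells was lower at 1.5 mm (6.83) than at 1.25 mm (7.58). Leaving out 1 pool, the 24PHAS difference was 1.59 to 4.99; most of these designs, with 18 or fewer arrangements, cannot reach 0.05. Over 597 refits of the 24 rows chosen by p, 595 kept their sign and 29 were calls. These rows were chosen by p in the same pools, and the refits reuse most of the same counts. The kept signs were thus largely fixed in advance and are no separate support for a difference. Set 3.29.22 alone, with 1 pool per length, could not be fitted. Depth limits single loci: most 24PHAS rows and every 21PHAS row were too low to test.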
